A study of Mus musculus with 8 samples.

Results

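Cullin-RING ligases are the largest class of ubiquitin ligases, and in the SCF ligases among them F-box subunits choose the proteins to be ubiquitylated. Their genes were found by symbol in a table of nascent transcription: the cullins, the Fbxl, Fbxo and Fbxw genes, Skp1, Skp2, Btrc, Rbx1, Rnf7, Cand1, and Cops2 to Cops8. This gave 82 of the 14861 genes in the table. They comprise 8 cullins, 2 RING subunits, the adaptor Skp1a, the exchange factor Cand1, 8 subunits of the COP9 signalosome and 62 F-box genes. The rule itself uses gene names and no measured value.

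The values come from PRO-seq, which lets engaged RNA polymerases extend their nascent RNA in isolated nuclei and so reads ongoing transcription rather than RNA level. The cells were a clonal line of mouse induced pluripotent stem cells with the FUCCI2 cell cycle reporter, grown on irradiated feeder cells in medium with FBS, LIF, a MEK inhibitor and a GSK3 inhibitor. The groups were mitotic cells (nocodazole at 200 ng/ml for 6 h, then shake-off), the same cells released into fresh medium for 1 h (early G1) or 3 h (late G1), and untreated asynchronous cells. The labels give 2 libraries per group, but the table has 1 combined column per group, so no value below has a replicate check or an error and no test was possible. The depth of the libraries is unknown. All values come from 1 clonal line. The synchronized groups all met nocodazole and the asynchronous cells did not, so effects of the drug and of cell cycle position cannot be told apart between them.

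Some facts of the whole table bear on every result. The column totals were 16863 in mitosis, 361203 at 1 h, 326086 at 3 h and 309144 in asynchronous cells, on a scale set by the authors. The median gene had a log2 ratio of -3.89 for mitosis over asynchronous cells, 4.21 for early G1 over mitosis, -0.08 for late over early G1, 0.30 for early G1 over asynchronous cells and 0.21 for late G1 over asynchronous cells. All log2 ratios are of (signal + 0.1), which understates the change of weak genes. "Higher" or "lower" in a count means at least 2-fold. Of 15 pluripotency markers 14 were in the table, with summed signals of 77.2 in mitosis, 1821 at 1 h, 1666 at 3 h and 1732 in asynchronous cells. Of 18 fibroblast feeder markers 9 were in the table, and they summed to 1.33, 28.5, 71.1 and 33.8 in the same order, with Twist1 listed at 0 in mitosis. In such bulk samples fewer transcribing cells and less transcription per cell cannot be told apart.

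A cullin is a long scaffold protein. At its C-terminal end it holds RBX1 or RNF7, small RING proteins that bring in the ubiquitin-charged conjugating enzyme, and at its N-terminal end it holds an adaptor with a substrate receptor. In the SCF ligases the scaffold is CUL1, the adaptor is SKP1 and the receptor is one of many F-box proteins. Attachment of NEDD8 switches the cullin on, the COP9 signalosome removes NEDD8, and CAND1 exchanges one receptor for another. SCF ligases with SKP2, FBXW7 or the β-TrCP proteins are textbook regulators of p27, cyclin E, MYC, β-catenin and the APC/C inhibitor EMI1.

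All 82 genes passed the minimum mean signal of 0.5 and none was listed at 0. Transcription of all of them fell in mitosis and came back within the first hour. In mitosis 82 of 82 were lower than in asynchronous cells, where the background is 99.1% of the genes compared. Their median log2 ratio was -3.94, against -3.89 for the median gene, and they kept a median of 5.64% of the asynchronous signal (all genes 5.30%). In early G1 82 of 82 were higher than in mitosis, against 99.3% of all genes, with a median rise of 21.0-fold (all genes 18.5-fold). Both shares are near those of the whole table, and both rest on the authors' scaling.

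Members differed from each other in the level they reached after release, and also in the share they kept in mitosis (1.35% to 42.7%). In early G1 the median member stood 1.45-fold above its asynchronous level (log2 ratio 0.54, all genes 0.30), with 15 genes higher (18.3%, background 17.7%) and 5 lower (6.1%, background 9.53%). From early to late G1 the median member had a log2 ratio of -0.36 (all genes -0.08), with 6 genes higher (7.32%, background 15.1%) and 5 lower (6.1%, background 7.52%). In late G1 the median member stood at 0.16 relative to asynchronous cells (all genes 0.21), with 11 higher (13.4%, background 16.9%) and 4 lower (4.88%, background 5.14%). The counts past 2-fold thus lay near or below those of the whole table. The 1 h signal was the highest of the 4 columns for 53 of 82 members (64.6%), against 44.2% of all genes. With columns rescaled to equal medians these became 31 of 82 and 26.2%.

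**Figure D1:**
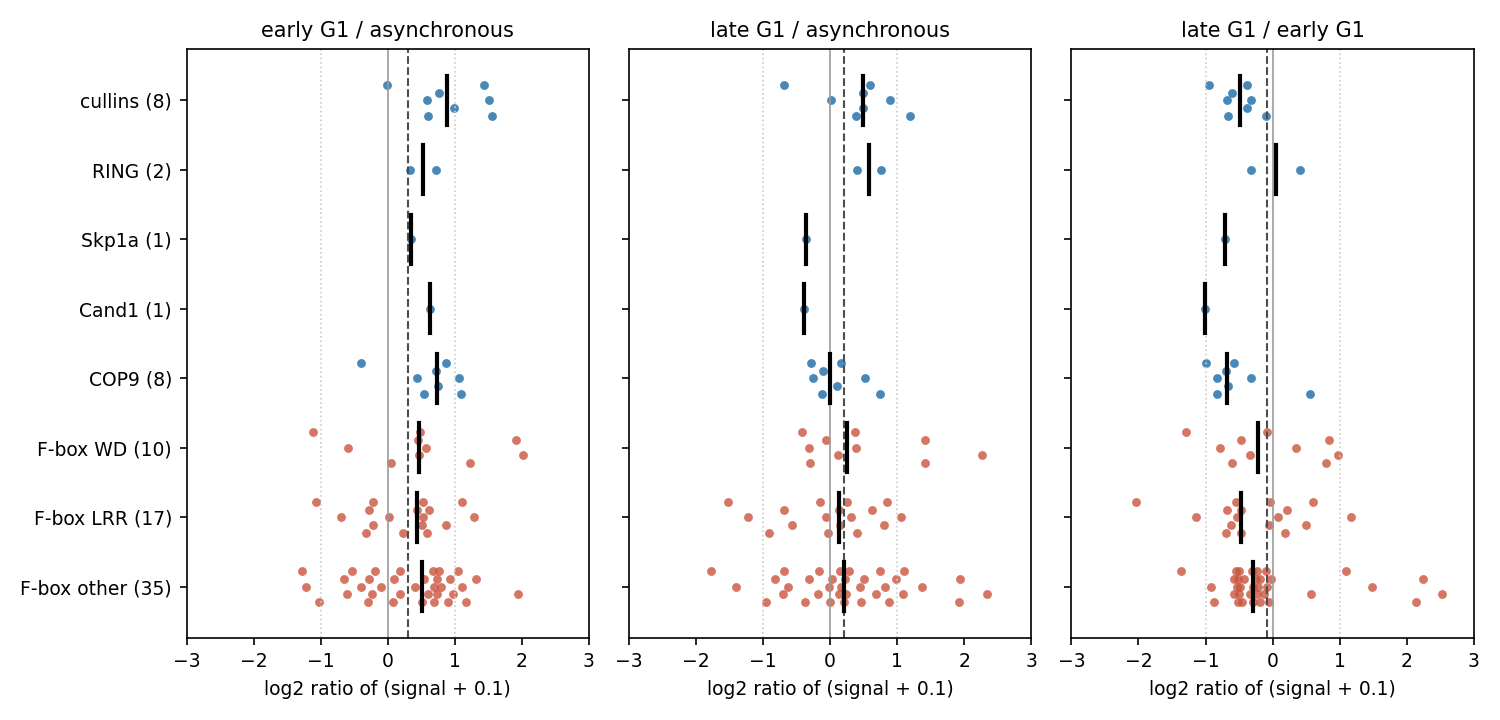
Log2 ratios of (signal + 0.1) for each of the 82 genes, by role, for early G1 over asynchronous cells, late G1 over asynchronous cells and late over early G1. Each point is 1 gene (blue for scaffold and regulator genes, red for F-box genes), black bars are medians of a role, the dashed line is the median of all genes (0.30, 0.21 and -0.08), dotted lines mark 2-fold. The cullins lie between -0.94 and -0.10 for late over early G1, while F-box genes spread from -2.04 to 2.52.

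Every one of the 8 cullin genes had less signal in late than in early G1, by log2 ratios from -0.94 to -0.10. So did 7911 of the 14699 genes compared, 14 of 16 genes of the anaphase-promoting complex and 39 of 49 proteasome genes. All cullins but Cul7 stood above their asynchronous level at both times (7 of 8, where the share of all genes was 63.7% at 1 h and 62.4% at 3 h). Their median log2 ratio to asynchronous cells was 0.88 in early G1 and 0.49 in late G1. Past 2-fold were 3 of 8 in early G1 (37.5%, background 17.7%) and 1 of 8 in late G1 (12.5%, background 16.9%), all of them higher.

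Cul1, the SCF scaffold, had a signal of 0.652 in mitosis, 18.9 at 1 h, 14.4 at 3 h and 11.0 in asynchronous cells. Cul2, which works with elongins and VHL, had 0.394, 14.7, 9.66 and 9.61 in the same order, so its late G1 signal equalled the asynchronous one to within 1%. Cul5, the other elongin-dependent cullin, had 0.578, 20.1, 15.3 and 10.1. These cullins were at 153% to 199% of their asynchronous signal in early G1, short of 2-fold.

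The largest early excess among the cullins belonged to Cul4b, Cul4a and Cul3. Cul4b, an X-linked scaffold of the DDB1 ligases, had 1.29 in mitosis, 46.1 at 1 h, 29.0 at 3 h and 15.6 in asynchronous cells, 2.95-fold above the asynchronous level in early G1. Cul3, which uses BTB proteins as receptors, had 0.486, 23.4, 12.1 and 8.61, a 2.70-fold excess in early G1. It also showed the steepest drop of any cullin towards late G1, a log2 ratio of -0.94 that stayed just short of 2-fold.

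Cul4a, the paralog of Cul4b, had 2.02 in mitosis, 20.8 at 1 h, 16.6 at 3 h and 7.26 in asynchronous cells. It kept 27.8% of its asynchronous signal in mitosis, while the other 7 cullins kept 4.10% to 8.29%. The transcript listed for Cul4a starts at position 13140307 of chromosome 8 (GRCm38), 34684 bp inside the RefSeq gene of 42318 bp, so the listed start is an internal one. Cul9 likewise starts 25723 bp inside its gene.

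Cul7 and Cul9 are related cullins with divergent partners, and they lie 129.9 kb apart on chromosome 17. Cul7 had 1.67 in mitosis, 32.7 at 1 h, 20.3 at 3 h and 32.8 in asynchronous cells. It was the only cullin below its asynchronous level in late G1, at 62.0% of it. Cul9 had 0.869, 24.8, 23.1 and 16.4, and held 141% in late G1. The log2 ratios of late G1 over asynchronous cells differed by -1.18 (Cul7 minus Cul9).

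The RING subunits took different courses after the first hour. Rbx1, the RING partner of most cullins, had 1.39 in mitosis, 43.8 at 1 h, 58.5 at 3 h and 34.7 in asynchronous cells. Rnf7, the RING partner of CUL5, had 1.58, 46.9, 37.5 and 28.5. Rbx1 was thus highest in late G1 and Rnf7 in early G1, although neither passed 2-fold between these times (log2 ratios 0.42 and -0.32). Skp1a, the adaptor of all SCF ligases, had 1.73, 33.3, 20.3 and 26.2, which put it at 127% of its asynchronous level in early G1 and 77.5% in late G1.

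Cand1, the exchange factor, was the only scaffold or regulator gene that passed 2-fold between the G1 times. Its signal was 15.1 in late G1 against 30.5 in early G1, a 2.01-fold fall, with 1.13 in mitosis and 19.7 in asynchronous cells. The call sits at the threshold: the log2 ratio of -1.01 became -0.99 with a pseudocount of 0.5, -0.89 with equal medians and -0.80 with quantile normalization.

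Most COP9 signalosome genes found by the naming rule also peaked early. The rule left out Gps1 and Cops9. Gps1 had 4.64 in mitosis, 114 at 1 h, 126 at 3 h and 111 in asynchronous cells, highest in late G1. Cops9 had 0.664, 19.0, 13.2 and 14.3, highest in early G1. For 7 of the 8 genes found by the rule the early G1 signal was the highest column (87.5%, against 44.2% of all genes). The median of these 8 was a log2 ratio of 0.74 to asynchronous cells in early G1, -0.01 in late G1 and -0.68 for late over early G1. Cops5, the catalytic subunit that cuts NEDD8 from cullins, had 0.612 in mitosis, 17.8 at 1 h, 11.2 at 3 h and 10.5 in asynchronous cells. Cops2 had 0.557, 18.1, 9.04 and 9.79, and its late over early ratio of -0.99 stopped short of 2-fold.

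Cops3, whose listed start lies 8493 bp inside its RefSeq gene, stood at 136% of its asynchronous signal in early G1 and 83.9% in late G1. For Cops4 these shares were 146% and 81.5%, and for Cops8 165% and 92.3%. Cops6, the partner of COPS5 in the catalytic module, had 11.5 in mitosis, 371 at 1 h, 295 at 3 h and 177 in asynchronous cells, so it was 2.10-fold higher in early G1 and remained at 167% in late G1. Of the 8 subunits found by the rule, 5 thus stood between 81.5% and 107% of the asynchronous level in late G1.

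The exception to the early peak among the subunits found by the rule was Cops7a. Its product and that of its paralog Cops7b occupy the same place in the complex. Cops7a had 1.81 in mitosis, 33.4 at 1 h, 49.3 at 3 h and 44.1 in asynchronous cells. Cops7b had 0.444, 13.2, 8.83 and 6.12, 2.14-fold above asynchronous cells in early G1. Cops7a minus Cops7b, the log2 ratios differed by -1.50 for early G1 over asynchronous cells and by 1.13 for late over early G1. Both listed starts lie inside the RefSeq genes, 32365 bp from the gene's start for Cops7a and 4485 bp for Cops7b.

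**Figure D2:**
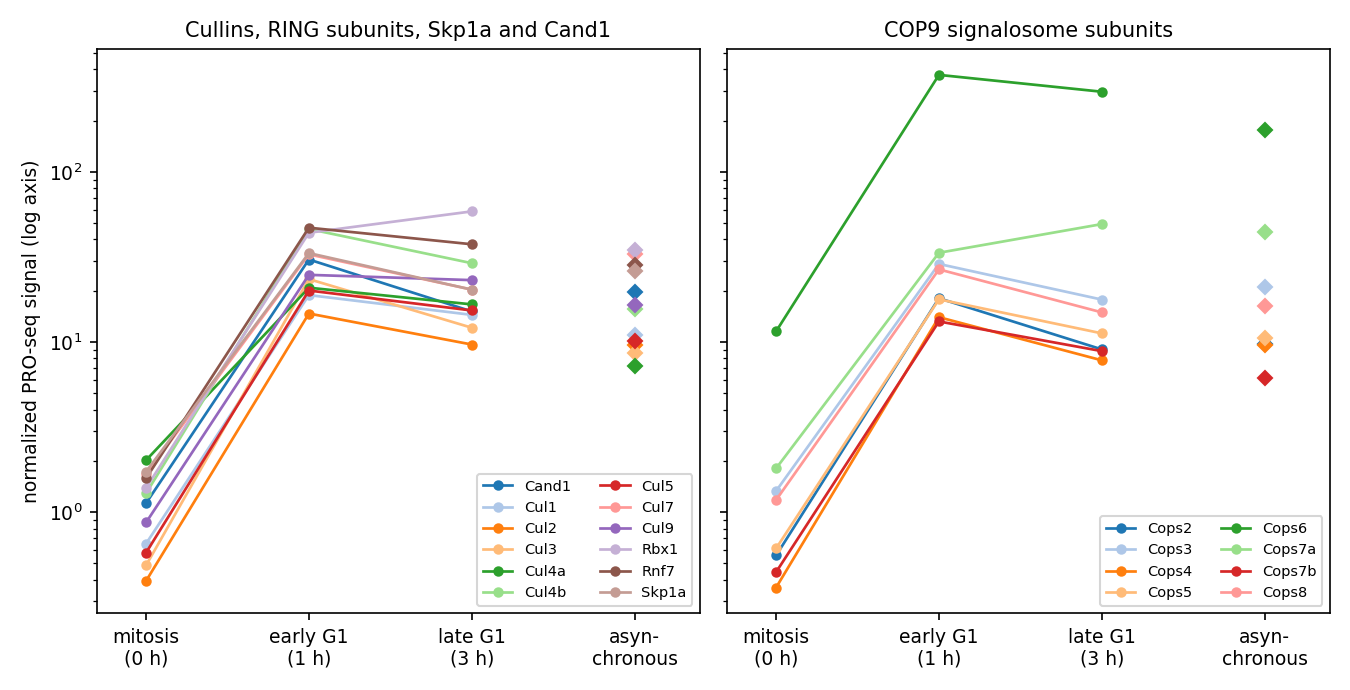
Normalized PRO-seq signal (log axis) of the 12 cullin, RING, Skp1a and Cand1 genes on the left and the 8 COP9 signalosome genes on the right. Lines join mitosis, early G1 and late G1, and diamonds give asynchronous cells. Early G1 is the highest of the 4 columns for 17 of these 20 genes (85%, against 44.2% of all genes), and Rbx1 and Cops7a are highest in late G1. Levels are not comparable between genes, since a correction for length is not known.

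F-box genes with WD repeats include the best known SCF receptors. Fbxw7, the receptor for cyclin E, MYC and Notch, had the largest late G1 excess of any member after Fbxo39. Its signal was 0.944 in mitosis, 29.1 at 1 h, 37.1 at 3 h and 7.63 in asynchronous cells, 3.78-fold higher than asynchronous cells in early G1 and 4.81-fold higher in late G1. Over the pseudocounts and scalings tried, its late G1 log2 ratio to asynchronous cells ran from 2.06 to 2.28. The listed start (chromosome 3, position 84952146, plus strand) is 65 bases before a RefSeq start and 137156 bp inside the whole gene of 164209 bp, so the listed transcript uses a downstream start.

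Fbxw9 had 7.73 in mitosis, 121 at 1 h, 79.4 at 3 h and 29.8 in asynchronous cells. It was 4.05-fold higher than asynchronous cells in early G1, the top ratio among the 82, and 2.66-fold higher in late G1, and it kept 26.0% in mitosis. A non-coding RNA gene and a miRNA gene overlap it in RefSeq, and whether reads were counted by strand is not known.

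The promoters of 3 F-box genes are shown: Fbxo5, the lowest member relative to asynchronous cells at both G1 times, Fbxw9, the highest in early G1, and Fbxw7, the second highest in late G1 after Fbxo39. They are RefSeq windows of 300 bases on GRCm38.p6, from 250 before to 50 after the RefSeq start, in the direction of the gene. Capitals mark exact matches, on either strand, to the searched motifs named after them. For Fbxo5 the window is chr10:5805416-5805715 on the minus strand, for Fbxw7 chr3:84951961-84952260 on the plus strand and for Fbxw9 chr8:85059869-85060168 on the plus strand.
Fbxo5: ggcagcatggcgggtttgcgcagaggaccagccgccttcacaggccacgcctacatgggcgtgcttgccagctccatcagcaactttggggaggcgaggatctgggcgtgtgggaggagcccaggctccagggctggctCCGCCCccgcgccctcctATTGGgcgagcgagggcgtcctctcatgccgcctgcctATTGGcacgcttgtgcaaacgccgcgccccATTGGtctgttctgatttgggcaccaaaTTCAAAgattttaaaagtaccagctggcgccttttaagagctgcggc
Fbxw7: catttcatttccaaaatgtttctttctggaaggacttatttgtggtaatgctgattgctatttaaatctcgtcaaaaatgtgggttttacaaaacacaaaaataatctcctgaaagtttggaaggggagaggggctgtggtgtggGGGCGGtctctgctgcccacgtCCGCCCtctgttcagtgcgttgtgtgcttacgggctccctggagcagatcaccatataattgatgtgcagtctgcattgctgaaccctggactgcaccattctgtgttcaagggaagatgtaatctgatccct
Fbxw9: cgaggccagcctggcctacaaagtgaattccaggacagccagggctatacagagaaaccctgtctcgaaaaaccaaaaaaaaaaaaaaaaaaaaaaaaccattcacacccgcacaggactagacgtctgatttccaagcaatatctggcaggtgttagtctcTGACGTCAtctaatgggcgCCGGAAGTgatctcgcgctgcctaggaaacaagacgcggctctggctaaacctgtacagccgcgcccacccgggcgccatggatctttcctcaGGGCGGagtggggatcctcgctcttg

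The motifs were CCAAT (the NF-Y site), TTTGAA (the cell cycle homology region), GGGCGG (SP factors), TATAAA (the TATA box), CACGTG (E-box), CCGGAAGT (ETS), TGACGTCA (CRE), CGCATGCG (NRF1), AAGATGGCG (YY1), and TTTCCCGC, TTTGGCGC and TTTCGCGC (E2F). The Fbxo5 window holds CCAAT on the opposite strand (ATTGG) at -93, -55 and -25 from the RefSeq start, TTTGAA on the opposite strand (TTCAAA) at 3 and a match to GGGCGG. It was the only 1 of 60 member windows with 3 or more CCAAT matches (1.67%, against 3.37% of all windows), and it also had TTTGAA. That combination, noticed after the letters were seen, occurs in 179 of 32851 windows (0.545%). The Fbxw9 window holds TGACGTCA at -88, CCGGAAGT at -69 and GGGCGG at 24, and the Fbxw7 window holds GGGCGG on both strands and no other searched motif.

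A window with a start within 1000 bp of the table's start was available for 60 members. GGGCGG was in 42 of these (70.0%, against 35.7% of all 32851 windows), beside a median GC content of 60.7% in members and 52.7% in all windows. The 32851 windows were not limited to genes measured here, while each member gave 1 window near its listed start, so the sets are unlike. What part this has in the differing shares was not tested. TATAAA was in 2 (3.33% and 13.6%), CCAAT in 16 (26.7% and 37.4%), TTTGAA in 8 (13.3% and 17.9%) and CACGTG in 6 (7.15% of all windows). CCGGAAGT was in 5 (8.33% and 3.89%), TGACGTCA in 3 (5.0% and 1.79%), AAGATGGCG in 3 (5.0% and 1.40%), CGCATGCG in 2 (3.33% and 1.87%) and TTTCCCGC in 2 (3.33% and 1.07%). TTTGGCGC and TTTCGCGC were in none. None of these letters shows that a factor binds.

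The β-TrCP genes Btrc and Fbxw11 encode paralogous receptors for β-catenin, IκB and EMI1. Fbxw11 had 0.624 in mitosis, 25.2 at 1 h, 10.3 at 3 h and 10.7 in asynchronous cells. Btrc had 0.373, 9.54, 5.50 and 6.78. Fbxw11 was 2.35-fold above asynchronous cells in early G1 and then fell 2.44-fold to late G1, while Btrc stayed under 2-fold in both (log2 ratios 0.49 and -0.78).

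Fbxw4 ran the other way, with 0.360 in mitosis, 8.06 at 1 h, 14.5 at 3 h and 5.37 in asynchronous cells, 2.67-fold above asynchronous cells in late G1. Fbxw8, which pairs with CUL7, reached 138% of its asynchronous signal in early G1 and 130% in late G1. Fbxw2 reached 138% and 109%, and Fbxw5 104% and 74.5%. The weakly transcribed Fbxw10 had 1.45 at 1 h, 2.16-fold lower than its asynchronous 3.25, and Fbxw17 had 7.23 at 3 h and an asynchronous signal of 5.53.

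Among the leucine-rich repeat F-box genes, Skp2 encodes the receptor that sends p27 to destruction at the G1/S boundary. Its signal was 0.877 in mitosis, 28.4 at 1 h, 18.5 at 3 h and 15.6 in asynchronous cells. Transcription of Skp2 was thus at 182% of the asynchronous level in early G1 and 119% in late G1, under 2-fold at both times. The listed Skp2 start lies 15060 bp inside its RefSeq gene and 185 bp from that of Lmbrd2 on the opposite strand.

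Fbxl5, the iron-sensing receptor, had 0.530 in mitosis, 15.4 at 1 h, 10.6 at 3 h and 10.8 in asynchronous cells. The paralogs Fbxl2 and Fbxl20 stood at 151% and 153% of their asynchronous signals in early G1, and at 109% and 175% in late G1.

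Several genes of this family stayed below the asynchronous level. Fbxl12 had 4.69 in mitosis, 78.7 at 1 h, 54.3 at 3 h and 127 in asynchronous cells, 2.35-fold lower in late G1. Fbxl15 had 4.51, 55.3, 78.0 and 116, 2.10-fold lower in early G1. Fbxl14, whose product targets Snail factors, was at 86.1% in early G1 and 53.1% in late G1, and Fbxl19, a CpG island binding protein gene, at 85.5% and 61.7%.

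Fbxl8 had the steepest fall between the G1 times, with 8.65 in late G1 against 35.8 in early G1 (4.10-fold), 1.09 in mitosis and 24.9 in asynchronous cells. In late G1 it stood 2.86-fold below asynchronous cells. Its start is 39 bp from that of Tradd, on the opposite strand, and Tradd had 36.4 in late G1 against 116 in early G1. Whether signal was shared between these divergent starts was not tested.

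Fbxl13 and Fbxl17 were weakly transcribed. Fbxl13 had 0.576 in mitosis, 3.42 at 1 h, 1.50 at 3 h and 1.35 in asynchronous cells, so it kept 42.7% in mitosis, the largest share among members. It overlaps the protein-coding genes Fam185a and Lrrc17. Fbxl17 had 3.56 in late G1 against 1.53 in early G1. The 17 genes of this family had a median log2 ratio to asynchronous cells of 0.44 in early G1 and 0.13 in late G1.

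The remaining 35 F-box genes held both extremes of the late G1 over asynchronous ratio. Fbxo5 encodes EMI1, the F-box protein that inhibits the anaphase-promoting complex until mitosis. Its signal was 1.74 in mitosis, 22.5 at 1 h, 15.9 at 3 h and 54.7 in asynchronous cells. It was the lowest member relative to asynchronous cells at both times, 2.43-fold lower in early G1 and 3.42-fold lower in late G1. Over the pseudocounts and scalings tried, the late G1 log2 ratio lay between -1.98 and -1.75. Fbxo5 is on chromosome 10 with a listed start at 5805600 on the minus strand, 135 bases before the RefSeq start of the window printed above.

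Its paralog Fbxo43, which encodes the meiotic inhibitor EMI2, was barely transcribed, with 0.0529 in mitosis, 1.24 at 1 h, 3.63 at 3 h and 2.64 in asynchronous cells. It was 2.78-fold higher in late than in early G1. The log2 ratios of late G1 over asynchronous cells differed by -2.22 (Fbxo5 minus Fbxo43). Fbxo17, a gene of the glycoprotein-binding F-box family, had 1.32, 22.8, 20.0 and 52.9, 2.32-fold lower than asynchronous cells in early G1 and 2.64-fold lower in late G1. The listed Fbxo17 start lies 15751 bp inside its RefSeq gene.

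**Figure D3:**
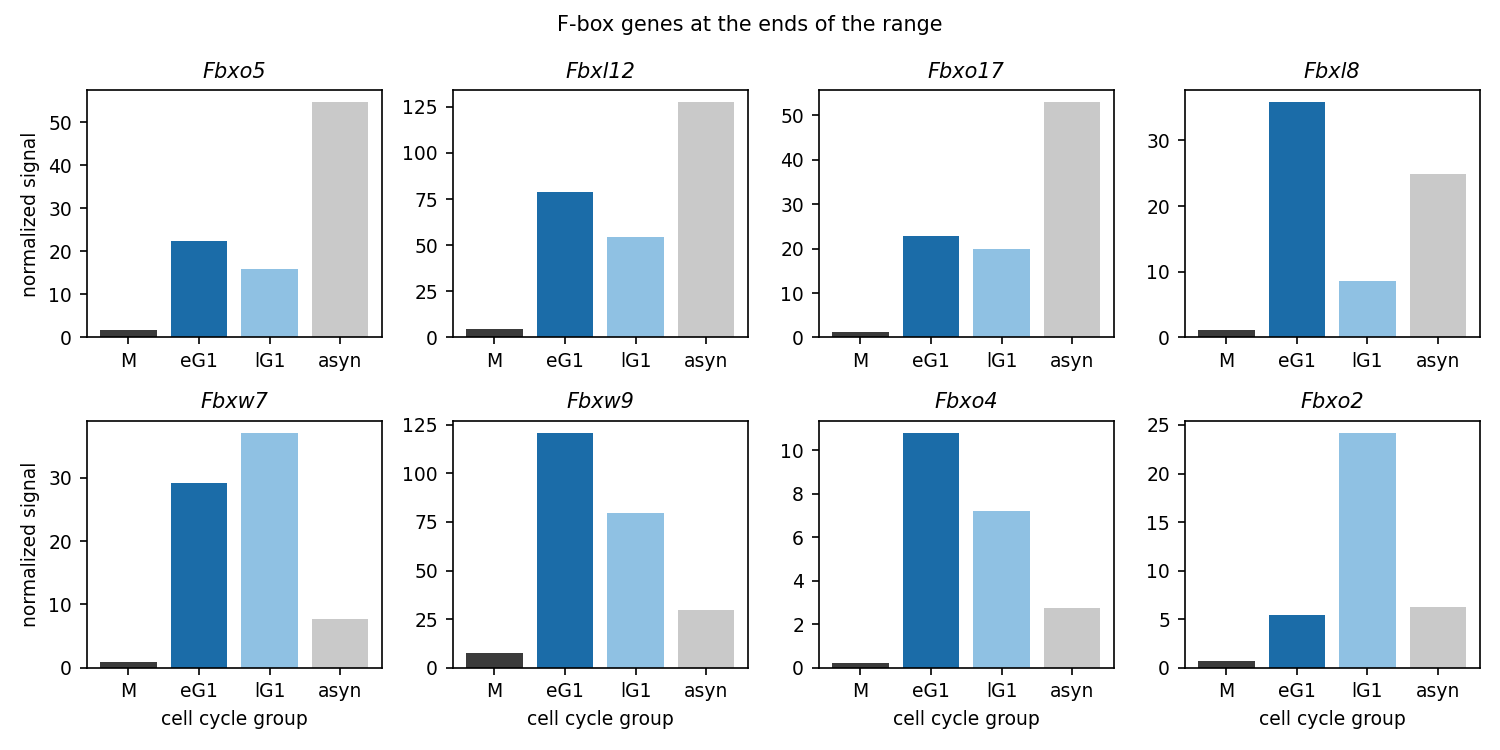
Normalized PRO-seq signal of 8 F-box genes in mitosis (M), early G1 (eG1), late G1 (lG1) and asynchronous cells (asyn), 1 combined value per bar with no error available. Fbxo5, Fbxl12 and Fbxo17 are highest in asynchronous cells (54.7, 127 and 52.9), Fbxl8, Fbxw9 and Fbxo4 in early G1 (35.8, 121 and 10.8), and Fbxw7 and Fbxo2 in late G1 (37.1 and 24.2).

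Fbxo4, a receptor linked to cyclin D1 and the telomere protein TRF1, had 0.224 in mitosis, 10.8 at 1 h, 7.21 at 3 h and 2.73 in asynchronous cells. It was 3.86-fold higher than asynchronous cells in early G1 and 2.59-fold higher in late G1. Fbxo31, also linked to cyclin D1, had 0.711, 16.7, 13.5 and 26.4, or 63.5% and 51.2% of the asynchronous level, short of 2-fold. These receptors with a shared reported substrate therefore lay on opposite sides of the asynchronous level.

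Fbxo34 had 18.8 at 1 h, 16.1 at 3 h and 7.47 in asynchronous cells, higher at both times (log2 ratios 1.32 and 1.10), and its paralog Fbxo46 had 33.5, 28.5 and 16.9. Fbxo25 had 27.5, 26.0 and 12.1, also higher at both times. Fbxo33 was higher in early G1 (2.16-fold), and in late G1 its log2 ratio of 0.98 fell just short. Fbxo42 had 30.0 at 1 h, 15.9 at 3 h and 14.4 in asynchronous cells, so its 2.07-fold early excess was nearly gone by late G1.

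Other receptors stayed within 2-fold of the asynchronous level at both times. Fbxo15, the mouse pluripotency marker used to select the first induced pluripotent cells, had 1.93 in mitosis, 63.9 at 1 h, 54.8 at 3 h and 34.1 in asynchronous cells, 187% and 161% of the asynchronous signal. The listed Fbxo15 start lies 17564 bp inside its RefSeq gene and 592 bp from that of the overlapping Timm21 on the opposite strand. Timm21 had 139 at 1 h, 91.4 at 3 h and 53.3 in asynchronous cells, and whether signal was shared was not tested. Fbxo11 stood at 162% and 142%, Fbxo28, a receptor that acts on MYC, at 191% and 184%, and Fbxo22, which targets a histone demethylase, at 167% and 116%. Fbxo7, a gene of inherited parkinsonism in humans, stood at 106% and 89.0%, Fbxo30 at 113% and 80.3% and Fbxo9 at 146% and 115%. Fbxl4, Fbxl6, Fbxl16, Fbxl18, Fbxl22, Fbxo3, Fbxo8, Fbxo10, Fbxo21, Fbxo24, Fbxo36, Fbxo38, Fbxo41, Fbxo45, Fbxo47 and Fbxo48 also stayed within 2-fold. They ranged from 69.0% (Fbxo47) to 173% (Fbxo41) in early G1 and from 56.0% (Fbxo47) to 156% (Fbxl4) in late G1.

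A small cluster on chromosome 4 holds Fbxo6, Fbxo44 and Fbxo2, all of the glycoprotein-binding family. Fbxo44 (minus strand, start at 148159851) and Fbxo2 (plus strand, start at 148160621) diverge from starts 770 bp apart, and Fbxo6 (minus strand, start at 148151925) lies 7926 bp further on. Their promoters are shown because the divergent genes moved in opposite directions. The windows are chr4:148160418-148160717 on the plus strand for Fbxo2 and chr4:148160045-148160344 on the minus strand for Fbxo44, with capitals for GGGCGG on either strand, and for CCAAT, found only in the second (as ATTGG).
Fbxo2: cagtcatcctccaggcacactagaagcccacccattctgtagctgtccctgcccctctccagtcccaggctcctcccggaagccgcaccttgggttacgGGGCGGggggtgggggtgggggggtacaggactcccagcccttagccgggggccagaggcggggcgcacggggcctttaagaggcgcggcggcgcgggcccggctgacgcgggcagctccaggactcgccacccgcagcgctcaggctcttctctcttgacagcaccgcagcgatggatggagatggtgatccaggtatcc
Fbxo44: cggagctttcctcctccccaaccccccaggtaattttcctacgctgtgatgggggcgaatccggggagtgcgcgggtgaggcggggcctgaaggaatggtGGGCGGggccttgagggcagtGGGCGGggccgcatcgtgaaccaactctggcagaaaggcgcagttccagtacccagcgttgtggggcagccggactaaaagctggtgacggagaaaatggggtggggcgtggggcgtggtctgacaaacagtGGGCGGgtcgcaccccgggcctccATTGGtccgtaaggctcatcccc

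Fbxo2 had 0.683 in mitosis, 5.43 at 1 h, 24.2 at 3 h and 6.24 in asynchronous cells, and so was 4.40-fold higher in late than in early G1. Fbxo44 had 0.0744, 9.27, 3.54 and 5.53 in the same order, and was 2.58-fold lower in late than in early G1. It also kept the smallest share of all members in mitosis, 1.35%. Fbxo6 had 2.41, 67.5, 54.9 and 89.3, with no 2-fold change after release. Late G1 was thus the peak for Fbxo2 and early G1 for Fbxo44, while Fbxo6 was highest in asynchronous cells. Fbxo27, also of this family, had 85.2% of its asynchronous signal in early G1 and 62.1% in late G1.

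Besides Fbxo2, the genes higher in late than in early G1 were Fbxo39, Fbxo40, Fbxo43, Fbxl17 and Fbxo16. Fbxo39 had 8.52 in late G1 against 1.72 in early G1, with 0.264 in mitosis and 1.60 in asynchronous cells. Fbxo40, a receptor gene of skeletal muscle, had 1.52 in late G1 against 0.182 in early G1, with 0.0104 in mitosis and 0.328 in asynchronous cells. Only its late G1 value was above the minimum mean signal of 0.5. Fbxo40 thus passed the filter through the column in which it counts as higher, and its place among these genes is no support for a rise. Fbxo16 had 2.11 in late G1 and 0.928 in early G1. Only Fbxo2 and Fbxo39 of the 6 had a mean signal of at least 2.5, and with that minimum 2 members were higher, against 10.3% of all genes. The feeder markers rose over the same step, to a sum of 71.1 in late G1 against 28.5 in early G1 (9 of 9 with more signal, 6 at least 2-fold), and their part in these results was not tested.

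**Figure D4:**
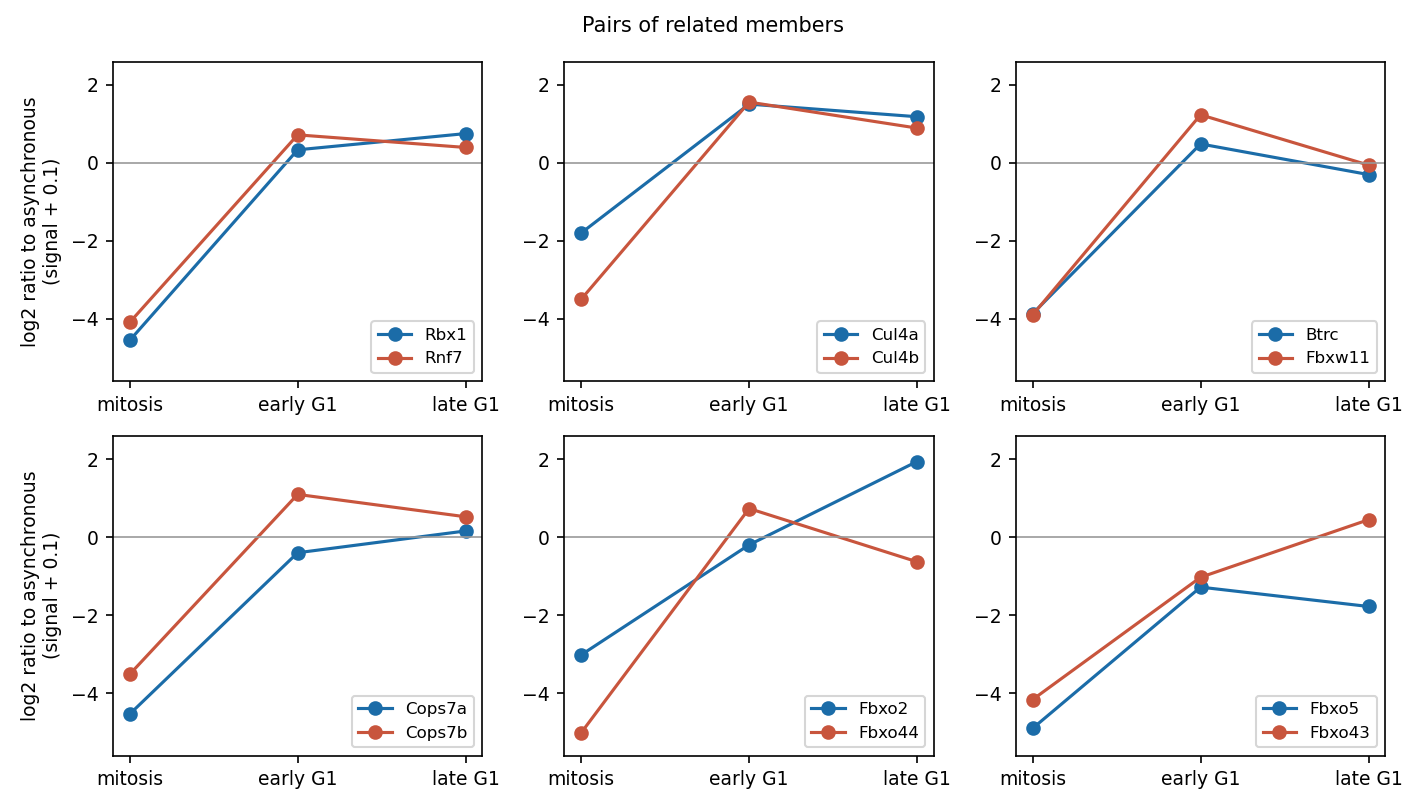
Log2 ratio of (signal + 0.1) to asynchronous cells for 6 pairs of related members in mitosis, early G1 and late G1. Each line is 1 gene and 0 is the asynchronous level. Cul4a and Cul4b nearly coincide in early G1 (1.51 and 1.56), whereas Fbxo2 and Fbxo44 cross between early G1 (-0.20 and 0.73) and late G1 (1.94 and -0.63).

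Paralogs were set side by side to see how far related genes shared a course. Of 15 listed pairs, 13 had both genes in the analysis, and 4 of these 13 had the same temporal class. The log2 ratios of a pair differed by at least 1 in 5 pairs for late over early G1, in 2 for early G1 over asynchronous cells and in 4 for late G1 over asynchronous cells. The pairs of the weak genes Fbxo43 and Fbxo40 (mean signals 1.89 and 0.51) were among those for late over early G1. Unrelated members were not paired for comparison, so these counts do not show whether paralogs are more alike than other members. Cul1 and Cul5 and the pair Fbxo34 and Fbxo46 had late over early ratios that differed by less than 0.01, while Fbxo30 minus Fbxo40 came to -3.02. That gap rests on the late G1 value through which Fbxo40 passed the filter.

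The authors' deposited table places each gene in 1 of 4 temporal classes made by rules that are not known here. Early Spike held 43 of the 82 genes (52.4%, against 33.6% of all genes), and all 43 had their highest value at 1 h. Early Plateau held 19 (23.2% and 26.3%), Transient 13 (15.9% and 24.7%) and Gradual 7 (8.54% and 15.4%). The split differed between the roles. Of the 20 scaffold and regulator genes 15 were Early Spike, 4 Early Plateau (Cul7, Cops3, Cops7a and Skp1a), 1 Transient (Rbx1) and none Gradual. Of the 62 F-box genes 28 were Early Spike, 15 Early Plateau, 12 Transient and 7 Gradual. The Gradual genes were Fbxo5, Fbxo17, Fbxo31, Fbxo47, Fbxl12, Fbxl15 and Fbxw10, and none of them reached its asynchronous level in early or late G1.

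**Figure D5:**
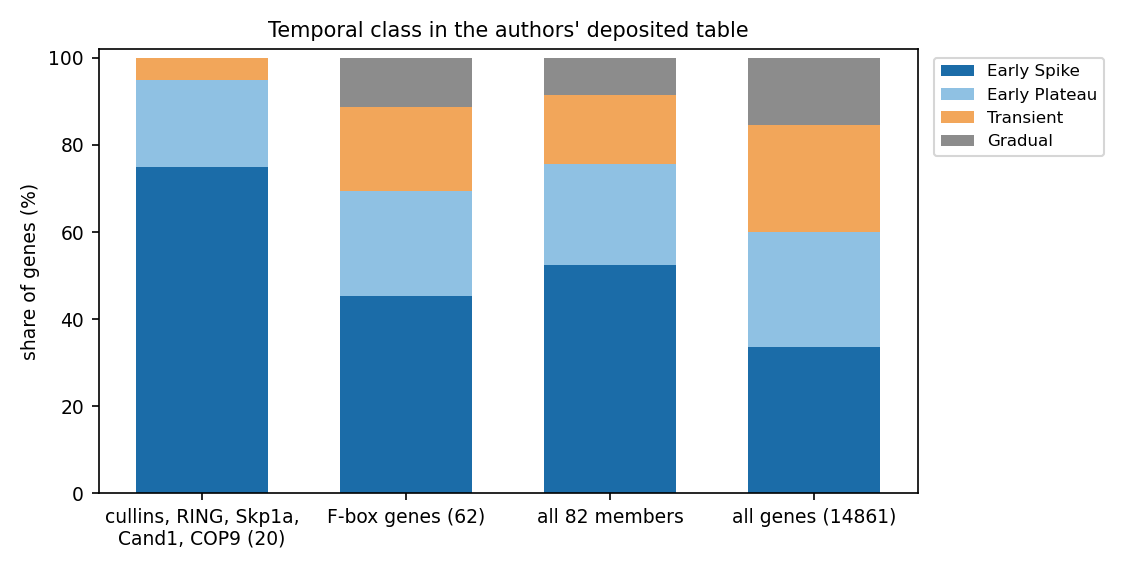
Share of genes (%) in each temporal class of the authors' deposited table, for the 20 scaffold and regulator genes, the 62 F-box genes, all 82 members and all 14861 genes. Early Spike holds 75.0%, 45.2%, 52.4% and 33.6% of them, and Gradual 0%, 11.3%, 8.54% and 15.4%.

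Scaffold and regulator genes also varied less among themselves than F-box genes. The interquartile range of log2 ratios was 0.25 against 0.81 for mitosis over asynchronous cells (all genes 0.88). It was 0.49 against 0.99 for early G1 over asynchronous cells (all genes 1.13) and 0.41 against 0.59 for late over early G1 (all genes 1.13). The 6 members with a mean signal under 2.5 are all F-box genes, and the part of signal level in this difference was not tested. Early G1 was the highest column for 17 of 20 scaffold and regulator genes (85%) and for 36 of 62 F-box genes (58.1%), against 44.2% of all genes. With equal medians the first count became 12 of 20, and the shares of all members and of all genes fell too, as given above.

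Other genes that cullin-RING ligases need were set beside the members. The table held 54 genes of 5 further lists: all 11 of neddylation, 4 of COP9 and exchange, 8 of ubiquitin conjugation and 3 SCF partners, and 28 of 31 adaptors and receptors of other cullins. In early G1 12 of 54 were higher than in asynchronous cells (22.2%, background 17.7%) and 2 lower (3.7%, background 9.53%), with a median log2 ratio of 0.61. From early to late G1 none was higher (background 15.1%) and 8 were lower (14.8%, background 7.52%), with a median of -0.43. In late G1 2 were higher than in asynchronous cells (3.7%, background 16.9%) and 4 lower (7.41%, background 5.14%). Nedd8 itself had 0.611 in mitosis, 25.1 at 1 h, 11.6 at 3 h and 16.3 in asynchronous cells. Ube2m, the main NEDD8-conjugating enzyme, had 7.22, 292, 130 and 117, 2.49-fold above asynchronous cells in early G1.

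Ddb1, the adaptor of CUL4, had 2.95 in mitosis, 88.6 at 1 h, 48.8 at 3 h and 38.3 in asynchronous cells, 2.31-fold higher in early G1. Vhl, a CUL2 receptor, fell 3.07-fold, with 6.01 in late G1 against 18.7 in early G1. Keap1, the CUL3 receptor for NRF2, was 4.16-fold lower than asynchronous cells in early G1, with 2.06, 14.0, 27.7 and 58.4. The SCF partner Cks2 had 4.41, 40.2, 33.8 and 105, lower at both times. The lists differed in their median log2 ratio of early G1 over asynchronous cells, which was 0.75 for ubiquitin conjugation, 0.71 for neddylation, 0.62 for adaptors and receptors, 0.13 for COP9 and exchange and -0.34 for the SCF partners, beside 0.30 for all genes. All 3 SCF partners (Ccnf, Cks1b and Cks2) lay below their asynchronous level at both G1 times. So did 5317 of 14661 genes compared in early G1 and 5518 of 14695 in late G1.

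The anaphase-promoting complex, whose catalytic core is a distant cullin relative, and the proteasome, which destroys the ubiquitylated proteins, were used for comparison. For early G1 over asynchronous cells the median log2 ratio was 0.54 in the 82 genes, 0.61 in 16 genes of the anaphase-promoting complex and 0.65 in 49 proteasome genes. For late over early G1 the medians were -0.36, -0.39 and -0.55, and for late G1 over asynchronous cells 0.16, 0.11 and 0.08. Early Spike held 56.2% of the anaphase-promoting complex genes and 61.2% of the proteasome genes, against 52.4% of the 82. With 1 column per group no test of these differences was possible.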

How the data were processed

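PRO-seq libraries of mouse induced pluripotent stem cells (8 in the labels, 2 in each of 4 groups) were analysed through 1 table. Per the file headers its values are a normalized signal of each gene that the authors computed, with 1 combined column per group. Cutadapt, Bowtie2, Picard and SAMtools and the build GRCm38 (mm10) are named in the submitters' processing notes, without versions. Not given in the sources used here are the combining and scaling of libraries, the assignment of reads and any use of strand or length. The deposited text label of temporal class is the authors' own. The early G1 and late G1 columns were taken, from their meaning, as the releases of 1 h and of 3 h.

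Log2 ratios of (signal + 0.1) were computed for genes with a mean signal of at least 0.5 (14814 genes, 47 below it) and no 0 in either column. Shares of the asynchronous signal carry no pseudocount. With 1 column per group, no p-value, SD or interval can be given. The members (by a rule on names), the lists and the comparisons were chosen with earlier results of these data known. The values of 1 member are not reported here. Named genes are the scaffold, RING, adaptor and COP9 members, F-box genes with known roles, and the 5 highest and 5 lowest ratios of each comparison. The 5 comparisons share columns. Positions are the table's, on GRCm38. Symbols matched RefSeq GRCm38.p6 directly for 81 members and through a synonym for 1 (Skp1a). Promoters are RefSeq's. The ratio step was tested on simulated data. Python 3.11.15, pandas 2.3.3, numpy 2.4.6 and matplotlib 3.10.9 were used. Alternatives covered pseudocount, filter, scaling, values of 0 and overlapping genes.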

Additional observations from a re-analysis of the deposited data

How the results depend on the processing

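No paired analysis was possible because the table holds 1 combined column per group, which also prevents leaving out a library. The depth is unknown, and 38 of the 82 genes overlap another annotated gene. For 18 members the listed start lies over 1000 bp from the start of the RefSeq gene. Keeping genes listed at 0 or using no filter left the members' counts and medians as they were, since all 82 pass the filter and none is at 0.

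Rescaling the columns removes the general mitotic fall by construction. For mitosis over asynchronous cells the members' median of -3.94 became 0.121 with equal medians and 0.0887 with quantile normalization. The 82 lower genes became 5 and 5 (all genes 6.94% and 6.73%), with 9 and 8 higher (all genes 9.51% and 8.56%). The other counts below are of members alone, without the share of all genes. They do not show whether members differ from all genes. For early G1 over mitosis the median of 4.39 became 0.0933 and 0.122, with 2 and 3 higher and 5 and 5 lower. With pseudocounts of 0.02 and 0.5 the mitotic median was -4.11 and -3.32, and the early G1 over mitosis median 4.62 and 3.96. Relative to the median gene, the mitotic ratio of Fbxo40 (1.94) became 0.62 with a pseudocount of 0.02 and turned to -0.54 with equal medians. Its mitotic signal of 0.0104 is below the main pseudocount of 0.1. Without a pseudocount it kept 3.16% of its asynchronous signal (median of all genes 5.30%). The cause of the turn was not tested.

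For late over early G1 the median of -0.36 became -0.24 with equal medians and -0.26 with quantile normalization. The 6 higher genes became 3 with quantile normalization and 2 with a minimum mean of 2.5, and the 5 lower genes 3 with a pseudocount of 0.5. For early G1 over asynchronous cells the median of 0.54 became 0.21 and 0.20 with equal medians and quantile normalization, and the 15 higher genes 6 and 8. The 5 lower genes became 3 with a pseudocount of 0.5 and 3 with a minimum mean of 2.5. For late G1 over asynchronous cells the median of 0.16 became -0.0396 and -0.0357 under these scalings, with 7 higher under both and 7 and 8 lower. Of the members, 31 and 32 were highest in early G1 under these scalings, in place of 53.

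Without the overlapping members 44 genes remained, so counts shrank. All 44 were lower in mitosis and 44 higher in early G1 than in mitosis, with a median of 4.63. For late over early G1 3 were higher, for early G1 over asynchronous cells 9 were higher and 3 lower, and for late G1 over asynchronous cells 6 were higher.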

Other observations

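Of the 82 genes, 15 have the start of another listed gene within 1000 bp, and these neighbours showed both shared and separate courses. Skp2 and Lmbrd2 start 185 bp apart on opposite strands. Skp2 had 28.4 at 1 h, 18.5 at 3 h and 15.6 in asynchronous cells, and Lmbrd2 had 6.85, 3.15 and 3.42. Fbxo36 and Trip12 start 537 bp apart, with 48.3, 33.1 and 30.2 for Fbxo36 and 51.0, 29.6 and 27.8 for Trip12. Fbxl6 and Slc52a2 start 97 bp apart, with 21.6, 13.4 and 14.9 for Fbxl6 and 19.7, 25.9 and 42.3 for Slc52a2, so Fbxl6 was highest in early G1 and its neighbour in asynchronous cells. Fbxw5 and C8g start 246 bp apart, with 18.1, 13.0 and 17.5 for Fbxw5 and 3.22, 0.393 and 4.92 for C8g. Fbxl12 and Ubl5 start 79 bp apart, with 78.7, 54.3 and 127 for Fbxl12 and 16.3, 10.9 and 15.1 for Ubl5.

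Among receptors of other cullins, Dcaf15, a CUL4 receptor, had 45.0 at 1 h, 65.9 at 3 h and 29.1 in asynchronous cells. Crbn, the CUL4 receptor bound by thalidomide in humans, had 29.5, 16.7 and 11.0. Cdc34, which encodes a conjugating enzyme of SCF ligases, had 11.3 in mitosis, 110 at 1 h, 93.3 at 3 h and 49.4 in asynchronous cells.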
